A study of Mus musculus with 24 samples.

Results

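The GIMAP genes (GTPases of immunity-associated proteins) measured here were the 8 members Gimap1, Gimap3, Gimap4, Gimap5, Gimap6, Gimap7, Gimap8 and Gimap9. They were chosen by name, as the entries with these symbols in both tables of gene counts, and they make up 8 of the 27179 genes counted. RNA-seq was performed on sorted mouse lymph node B cells of the C57BL/6 strain in 4 genotypes. Control mice carried the Cd23-Cre transgene alone (Cd23T/+). PU.1 cKO mice carried the transgene and loxP-flanked alleles of Spi1, the gene of the Ets factor PU.1 (Spi1fl/fl Cd23T/+). SpiB KO mice carried the same flanked alleles without Cre and lacked Spib, the gene of the related factor SpiB (Spi1fl/fl Cd23+/+ Spib-/-). PU.1 SpiB DKO mice combined both losses (Spi1fl/fl Cd23T/+ Spib-/-). Cd23-Cre deletes from the transitional stage of B cell development, and cells that escape deletion stay in the sample. Each genotype was sequenced as naive cells, after 48 h of culture with CD40L+IL-4 and after 48 h with LPS+IL-4, with 2 replicates each and 24 libraries in all. The labels do not say whether the replicates came from separate mice, nor the age of each mouse, so p-values measure the spread between these libraries.

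GIMAP proteins bind GTP through an AIG1-type domain and are made mainly in lymphocytes, where several are anchored to membranes of the endoplasmic reticulum, mitochondria or lysosomes. They are best known for keeping resting lymphocytes alive. Mice without Gimap5 lose lymphocytes and the quiescence of those that remain, Gimap1 is needed for mature T and B cells to persist, and Gimap6 binds a member of the ATG8 family of autophagy proteins.

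All 8 genes lie in 1 cluster of 123.7 kb on mouse chromosome 6 (GRCm38.p6, positions 48647186 to 48770851). In the RefSeq annotation Gimap8 comes first, at positions 48647186 to 48660875. It is followed by Gimap9 at 48676121 to 48679116, Gimap4 at 48684578 to 48692062, Gimap6 at 48701583 to 48708244 and Gimap7 at 48718621 to 48724636. Gimap1 (48739047 to 48743795), Gimap5 (48746197 to 48754200) and Gimap3 (48764464 to 48770851) close the cluster. Gimap6 and Gimap3 are on the minus strand and the other 6 on the plus strand.

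The promoters of Gimap9 and Gimap7 are printed from RefSeq (GRCm38.p6), since the account of the genotypes turns mainly on these genes. Each runs from 250 bases before to 50 bases after an annotated start, 5′ to 3′ on the plus strand, and capitals mark matches on either strand to the words GAGGAA and AGGAAG. Both words hold the core of an Ets site, the kind of sequence that PU.1 and SpiB bind, and they overlap where GAGGAAG occurs. The second word was added after the expression values had been seen.
Gimap9, chr6:48675885-48676184: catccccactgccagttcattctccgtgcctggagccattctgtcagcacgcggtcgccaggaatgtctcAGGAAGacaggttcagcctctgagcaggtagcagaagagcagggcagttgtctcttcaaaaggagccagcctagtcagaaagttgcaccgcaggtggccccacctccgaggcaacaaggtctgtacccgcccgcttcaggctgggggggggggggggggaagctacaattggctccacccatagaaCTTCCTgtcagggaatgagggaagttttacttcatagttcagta
Gimap7, chr6:48718371-48718670: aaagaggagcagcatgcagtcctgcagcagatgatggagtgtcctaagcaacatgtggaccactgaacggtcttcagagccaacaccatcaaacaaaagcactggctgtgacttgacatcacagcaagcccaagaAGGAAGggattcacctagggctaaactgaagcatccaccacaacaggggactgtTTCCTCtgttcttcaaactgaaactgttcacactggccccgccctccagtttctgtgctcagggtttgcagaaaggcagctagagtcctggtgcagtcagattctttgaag
Counted from the start site, the Gimap9 window held AGGAAG at -180 to -175 on the plus strand and at 7 to 12 on the minus strand. The Gimap7 window held AGGAAG at -115 to -110 on the plus strand and GAGGAA at -61 to -56 on the minus strand. The 8 members have 9 such windows in the table. GAGGAA was found in 3 of the 9, those of Gimap1, Gimap4 and Gimap7, against 28.3% of all 32851 windows of 300 bases. AGGAAG was found in 7 of the 9, all but that of Gimap6 and 1 of the 2 windows of Gimap8, against 35.4% of all windows. An Ets-IRF composite element, the joint site of PU.1 or SpiB with an IRF factor, was found in 0 of the 9 and in 2.72% of all windows. These matches describe letters in the windows, not binding.

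The libraries held 14231188 to 18194629 counted reads in naive cells, 9598674 to 61640683 with CD40L+IL-4 and 22757630 to 73658850 with LPS+IL-4. With CD40L+IL-4 the deepest was PU.1 cKO replicate 2, and no other library of that stage exceeded 11434235. The share of the ribosomal RNA entry Rn45s was highest in CD40L+IL-4 DKO replicate 1 (6.638%). Naive control replicate 1 (3.616%) and LPS+IL-4 PU.1 cKO replicate 2 (3.259%) followed. Spib was lower in every Spib-deficient group, with log2 fold changes from -3.83 down to -5.50. Spi1 was lower in PU.1 cKO at each stage and in DKO naive and CD40L+IL-4 cells. In LPS+IL-4 cells labelled PU.1 SpiB DKO, however, Spi1 stood at 63.9 and 58.9 CPM against 72.0 and 60.7 CPM in control, a log2 fold change of -0.11 (SE 0.10, adjusted p = 0.448). In naive DKO cells Spi1 was lowered less than in PU.1 cKO, at 103 and 110 CPM against 59.5 and 53.3, with 155 and 174 in control. The counts cover all exons of Spi1, including those outside the deleted part, so they do not measure the deletion itself. The study looked at reads over the deleted exon, which were not analysed here, and described retention of that exon in naive DKO cells and efficient deletion in the activated cultures. The LPS+IL-4 libraries are called below by their label. Summed markers of B cells were at 8701 to 41480 CPM (counts scaled to library size with TMM factors) in all libraries. They were lower in DKO than in control at each stage. The sums were 25670 and 24230 CPM in DKO against 36410 and 41480 in control for naive cells. They were 14760 and 12970 against 22320 and 28910 with CD40L+IL-4, and 9989 and 10500 against 13140 and 11140 with LPS+IL-4.

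In naive control cells the GIMAP genes were among the more abundant transcripts. Levels of different genes were compared per length, as log2 RPKM, which scales reads by transcript length and library size. Gimap6 was highest at 8.29 and 8.39 in replicates 1 and 2. Gimap1, with 8.01 and 8.23, and Gimap4, with 8.09 and 8.04, followed and overlapped each other. Gimap3 came next with 7.34 and 7.46. Gimap7 (6.45 and 6.48) and Gimap9 (6.46 and 6.47) could not be ordered, and Gimap8 (5.70 and 6.02) and Gimap5 (5.28 and 5.38) were lowest. Gimap6 thus lay above 98.6% and Gimap5 above 85% of the 13569 genes with a value. All 8 members passed the filter on low counts at every stage.

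Activation lowered the share of most members among counted reads in control cells. The levels that follow are in CPM on 1 scale for all 24 libraries, and "changed", "rose" or "fell" means an adjusted p under 0.15 (edgeR quasi-likelihood test, Benjamini-Hochberg) with a fold above 1.5. Between naive and CD40L+IL-4 control cells 7 of 8 members fell and none rose, where 48.8% of all genes tested changed and 23.4% fell. Between naive and LPS+IL-4 control cells 6 of 8 fell, where 63.9% changed and 31.3% fell. The median log2 fold change of the members was -1.11 and -1.23, against 0 and 0.01 over all genes. These CD40L+IL-4 libraries were counted in a table of their own, so stage and any difference between tables cannot be told apart. In such bulk samples fewer cells of a type and less RNA per cell cannot be told apart either. CPM are shares of a library and do not measure RNA per cell, so a lower share is not by itself less RNA per cell.

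With LPS+IL-4 the steepest fall was that of Gimap7, whose human counterpart stimulates the GTPase activity of other GIMAP proteins. Its control level was 113 and 115 CPM in naive, 40.2 and 47.4 in CD40L+IL-4 and 16.7 and 18.3 in LPS+IL-4 cells, so that the 3 stages did not overlap. The log2 fold change from naive was -1.38 with CD40L+IL-4 and -2.70 (SE 0.14, adjusted p = 3.88e-12) with LPS+IL-4. Gimap9, a member of little known function, was at 125 and 125 CPM in naive, 38.9 and 49.5 in CD40L+IL-4 and 37.5 and 31.8 in LPS+IL-4 cells, log2 fold changes of -1.50 and -1.86. Both activated states lay well below naive cells for this gene.

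Among the members with a known part in lymphocyte survival, Gimap1 was at 412 and 457 CPM in naive, 223 and 303 in CD40L+IL-4 and 139 and 125 in LPS+IL-4 cells. It fell by 0.72 and 1.72 on the log2 scale. Gimap3, a close relative of Gimap5 that is a pseudogene in humans, was at 369.7 and 383 CPM in naive, 166 and 202 in CD40L+IL-4 and 195 and 162 in LPS+IL-4 cells, and the activated states overlapped. Gimap5 was at 74.8 and 81.2, 50.4 and 51.4, and 59.4 and 59.2 CPM in the same order. Its fall of 0.62 with CD40L+IL-4 was past the fold threshold, and that with LPS+IL-4 (-0.40, adjusted p = 0.00297) was not. Without control naive replicate 2 the first value was -0.56, and without control CD40L+IL-4 replicate 1 that of Gimap1 was -0.52, both under the fold threshold.

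Gimap6, the member linked to autophagy, was at 545 and 559 CPM in naive, 196 and 220.5 in CD40L+IL-4 and 299 and 275 in LPS+IL-4 cells. It fell by 1.41 with CD40L+IL-4 and by 0.94 with LPS+IL-4. Gimap8, which holds several GTPase domains, was at 204 and 245, 96.5 and 99.8, and 87.0 and 86.2 CPM, log2 fold changes of -1.19 and -1.37. Gimap4, known for speeding the death of T cells after an apoptotic signal, was the exception. It was at 525 and 490.4 CPM in naive, 623 and 682 in CD40L+IL-4 and 679 and 712 in LPS+IL-4 cells, above naive cells in all 4 activated control libraries. Its log2 fold changes of 0.36 (adjusted p = 0.00674) and 0.45 (adjusted p = 0.000774) were positive but under the fold threshold. Between the activated states 2 members changed, Gimap1 (-0.99) and Gimap7 (-1.32, adjusted p = 3.75e-07), both lower with LPS+IL-4, where 41.2% of all genes changed and 20.9% fell. With LPS+IL-4 the per-length order was therefore another, with Gimap4 highest (log2 RPKM of 8.62 and 8.59) and Gimap7 lowest (3.81 and 3.94). Gimap7 there lay above 58.1% of the 12634 genes with a value, and Gimap4 above 98.9%.

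**Figure D1:**
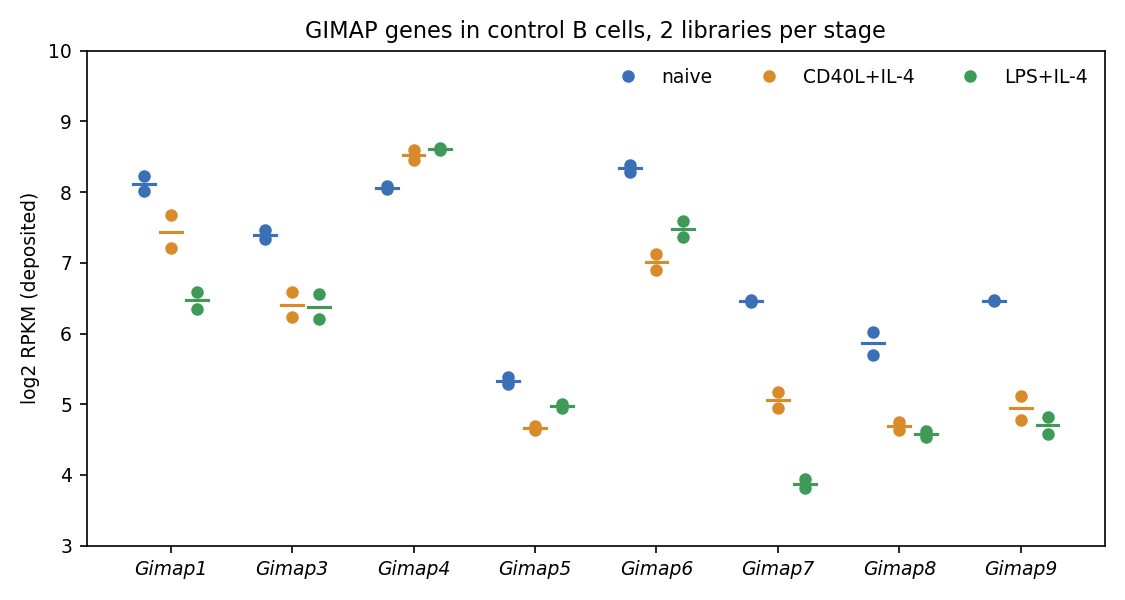
Log2 RPKM of the 8 GIMAP genes in the 2 control libraries of each stage, with points for libraries and short lines for their mean. Among naive values Gimap7 is at 6.45 and 6.48 and Gimap4 at 8.09 and 8.04. Among LPS+IL-4 values Gimap7 is lowest at 3.81 and 3.94, and Gimap4 highest at 8.62 and 8.59. Log2 RPKM serve here for the order of genes within a stage. Stages were compared by CPM on 1 scale, given in the text.

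The next question was whether loss of PU.1, of SpiB or of both altered GIMAP expression within a stage. SpiB KO also differed from control in lacking Cre and in carrying flanked Spi1. DKO differed from SpiB KO in Cre as well as in PU.1, so Cre also enters the interaction of both losses. These differences cannot be told apart from loss of the factors. The summed level of the 8 members lay in a narrow range in naive cells, with 2177 and 2348 CPM for control, 2151 and 2308 for the PU.1 cKO, 2170 and 2172 for the SpiB KO and 2226 and 2203 for DKO. With CD40L+IL-4 the sums spanned 1373 to 1902 CPM and with LPS+IL-4 1434 to 1740 CPM over all genotypes. Individual members did differ, and these were mainly Gimap7, Gimap9 and Gimap3. Levels within a stage are given in CPM scaled over the 8 libraries of that stage. The 3 comparisons with control at a stage share its 2 control libraries.

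Gimap7 was higher in all 3 mutant groups after LPS+IL-4. Its level was 17.4 and 18.6 CPM for control, 39.8 and 48.2 for the PU.1 cKO, 34.7 and 30.8 for the SpiB KO and 44.9 and 41.1 for the libraries labelled PU.1 SpiB DKO. The means ± SD (n = 2 each) were 18.0 ± 0.831, 44.0 ± 5.96, 32.7 ± 2.77 and 43.0 ± 2.64 CPM. No mutant library overlapped the control, and every mutant level stayed below the 113 and 115 CPM of naive control cells on the scale of all libraries. On the log2 scale PU.1 cKO exceeded control by 1.29 (SE 0.12, adjusted p = 0.000195), SpiB KO by 0.87 (SE 0.12, adjusted p = 0.00741) and DKO by 1.26 (SE 0.12, adjusted p = 8.55e-05). The change in DKO was smaller than the sum of the single changes, with an interaction of -0.90 (SE 0.17, adjusted p = 0.066). That interaction did not pass without PU.1 cKO replicate 2 (-0.74, adjusted p = 0.263), DKO replicate 2 (-0.86, adjusted p = 0.203) or SpiB KO replicate 1 (-0.83, adjusted p = 0.229). The DKO and PU.1 cKO libraries overlapped, with a difference of -0.03 on the log2 scale, and DKO exceeded SpiB KO by 0.39 (adjusted p = 0.0521), under the fold threshold.

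In the other stages Gimap7 differed less. Naive cells held 103.5 and 110.0 CPM for control, 111 and 127 for the PU.1 cKO, 117 and 107 for the SpiB KO and 163 and 144 for DKO. The DKO libraries stood above all others, by 0.52 over control on the log2 scale (SE 0.12, adjusted p = 0.0132), which is under the fold threshold. It was past it without DKO replicate 2 (0.59, adjusted p = 0.0253) and with limma voom (0.62). With CD40L+IL-4 the level was 41.7 and 48.4 CPM for control, 56.5 and 62.4 for the PU.1 cKO, 54.2 and 63.4 for the SpiB KO and 60.4 and 54.9 for DKO. All 6 mutant libraries stood above both controls there, but none of the log2 fold changes, 0.40 for PU.1 cKO (adjusted p = 0.156), 0.39 for SpiB KO (adjusted p = 1) and 0.36 for DKO (adjusted p = 0.172), passed the test.

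The effect of genotype on Gimap7 differed between stages. In the fit of all 24 libraries the PU.1 cKO effect was larger with LPS+IL-4 than in naive cells, by a log2 difference of 1.10 (SE 0.18, adjusted p = 0.00286) and larger than with CD40L+IL-4 by 0.84 (SE 0.19, adjusted p = 0.0366). The SpiB KO effect was larger than in naive cells by 0.79 (SE 0.18, adjusted p = 0.0302). The DKO effect was larger than in naive cells by 0.67 (SE 0.18, adjusted p = 0.0174) and larger than with CD40L+IL-4 by 0.82 (SE 0.19, adjusted p = 0.00788). Spi1 counts were lowered in naive and CD40L+IL-4 DKO cells but hardly in the LPS+IL-4 libraries labelled DKO, as given above. The DKO differences between stages thus do not compare groups with equally lowered Spi1 counts. Without SpiB KO LPS+IL-4 replicate 1 the SpiB KO difference was 0.67 (adjusted p = 0.175). Without control LPS+IL-4 replicate 1 or DKO LPS+IL-4 replicate 1 the DKO difference from naive cells was 0.58, under the fold threshold. The SpiB KO effect with LPS+IL-4 minus that with CD40L+IL-4 did not pass, at 0.40 to 0.46 under the other settings. Between CD40L+IL-4 and naive cells no genotype effect on Gimap7 passed as different. Differences from CD40L+IL-4 also cross the separate tables of counts, so stage and table cannot be told apart in them.

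**Figure D2:**
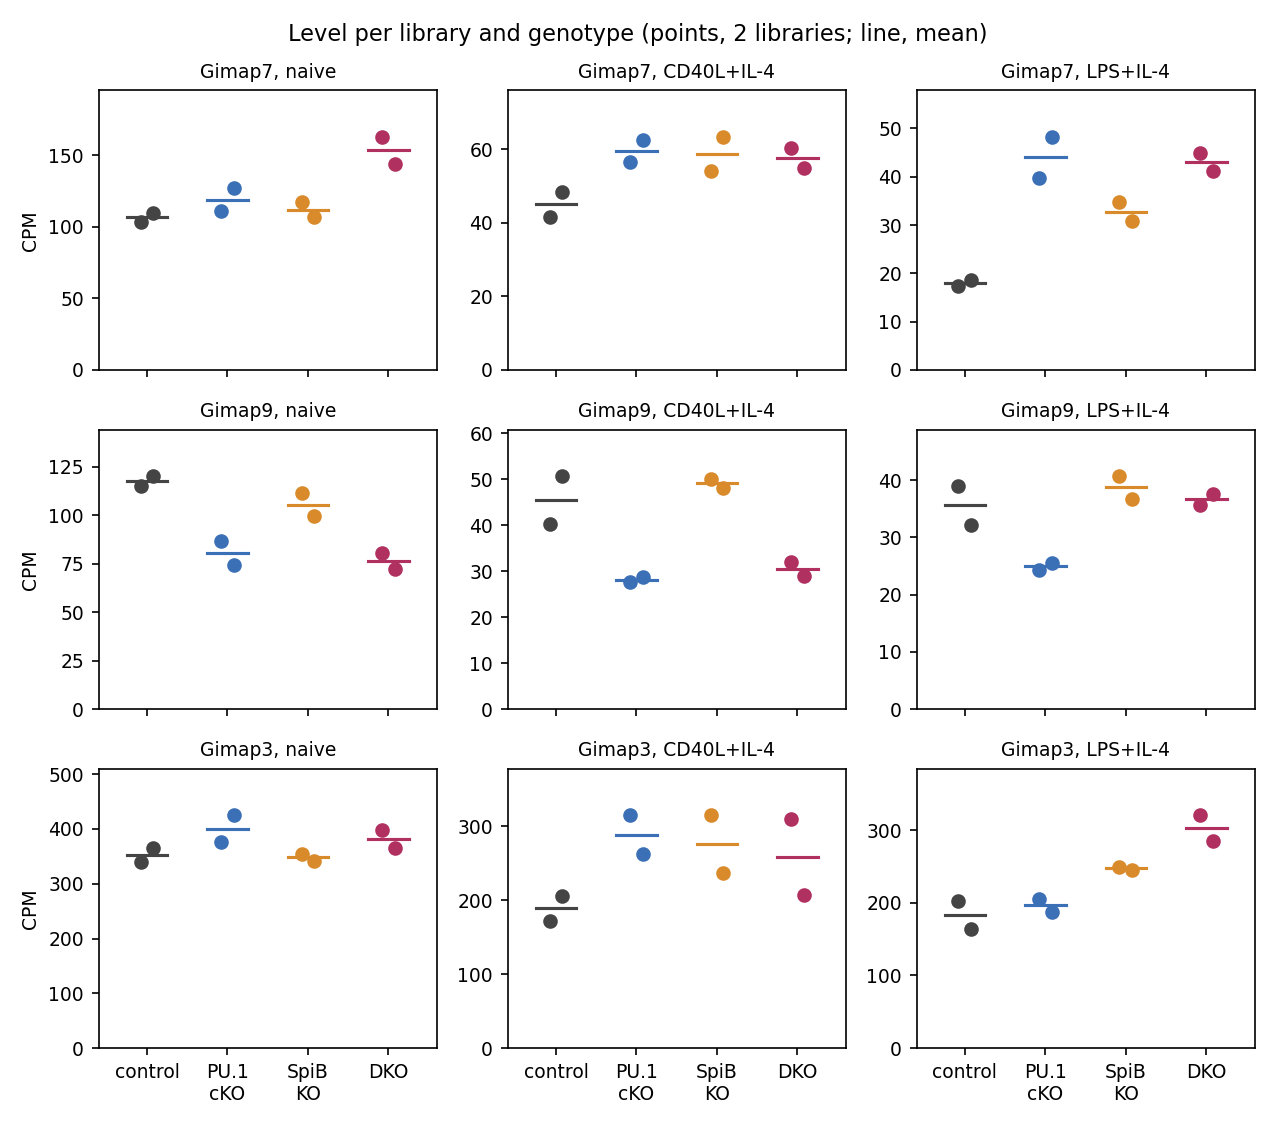
CPM of Gimap7, Gimap9 and Gimap3 in each library, by stage and genotype, with points for libraries and short lines for the mean of 2. With LPS+IL-4 the 6 mutant libraries hold 30.8 to 48.2 CPM of Gimap7 against 17.4 and 18.6 in control.

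Gimap9 was lower in PU.1 cKO and DKO, in naive and in CD40L+IL-4 cells. Naive cells held 115 and 120.0 CPM for control, 86.7 and 74.3 for the PU.1 cKO, 111.5 and 99.3 for the SpiB KO and 80.2 and 72.1 for DKO. Both groups carrying Cre and flanked Spi1 lay below both other groups, although Spi1 itself was lowered less in DKO than in PU.1 cKO. Against control PU.1 cKO differed by -0.54 on the log2 scale (SE 0.12, adjusted p = 0.0288), DKO by -0.62 (SE 0.12, adjusted p = 0.00663) and SpiB KO by -0.16, and only the DKO value was past both thresholds. Without DKO replicate 2 it was -0.57 (adjusted p = 0.0413), and with limma voom -0.54, under the fold threshold in both cases. Without PU.1 cKO replicate 1 the PU.1 cKO value was -0.66 (adjusted p = 0.0831), past both.

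With CD40L+IL-4 Gimap9 was at 40.3 and 50.6 CPM for control, 27.6 and 28.7 for the PU.1 cKO, 49.98 and 48.1 for the SpiB KO and 31.9 and 28.9 for DKO. Again the 4 libraries of PU.1 cKO and DKO were lower than the other 4. It fell by 0.69 in PU.1 cKO against control (SE 0.16, adjusted p = 0.0247) and by 0.69 in DKO against SpiB KO (SE 0.16, adjusted p = 0.0235). The log2 fold change of DKO against control was -0.58 (SE 0.17, adjusted p = 0.0416), just under the fold threshold in edgeR and past it in DESeq2. It was past both thresholds without control replicate 1 (-0.74, adjusted p = 0.0406) or DKO replicate 1 (-0.65, adjusted p = 0.0987). The PU.1 cKO call was lost without control replicate 2 (-0.52, adjusted p = 0.15) or PU.1 cKO replicate 2 (-0.71, adjusted p = 0.161). The DKO call against SpiB KO was lost without DKO replicate 2 (-0.62, adjusted p = 0.172).

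After LPS+IL-4 Gimap9 was at 39.0 and 32.1 CPM for control, 24.4 and 25.5 for the PU.1 cKO, 40.7 and 36.8 for the SpiB KO and 35.7 and 37.7 for the libraries labelled PU.1 SpiB DKO. PU.1 cKO was lower by 0.51 on the log2 scale (SE 0.12, adjusted p = 0.0189, under the fold threshold), and -0.65 (adjusted p = 0.0119) without control replicate 2, past both. The DKO libraries overlapped the control (0.05, SE 0.11, adjusted p = 0.793). They stood above PU.1 cKO by 0.56 (SE 0.12, adjusted p = 0.0115), under the fold threshold. That difference was 0.60, past the fold threshold, without DKO replicate 1 or without PU.1 cKO replicate 2. The DKO effect on Gimap9 was 0.61 higher with LPS+IL-4 than in naive cells (SE 0.18, adjusted p = 0.0241), and this difference passed in 5 of 8 fits that left out 1 library each. It was 0.46 (adjusted p = 0.165) without control LPS+IL-4 replicate 2, 0.53 without DKO LPS+IL-4 replicate 2 and 0.54 without DKO naive replicate 2. The limit on Spi1 given for the DKO effect on Gimap7 holds for Gimap9 too. The PU.1 cKO effect on Gimap9 differed between stages by only -0.13 to 0.14 on the log2 scale.

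Gimap3 rose in some mutant groups. With CD40L+IL-4 it was at 172 and 206 CPM for control, 315 and 263 for the PU.1 cKO, 315 and 237 for the SpiB KO and 309.5 and 207.5 for DKO. The replicates spread widely, and all 6 mutant libraries were above both controls. On the log2 scale PU.1 cKO stood above control by 0.61 (SE 0.22, adjusted p = 0.121), SpiB KO by 0.54 (adjusted p = 1) and DKO by 0.45 (adjusted p = 0.204). The PU.1 cKO call was lost on leaving out any 1 of its 4 libraries (adjusted p of 0.183 to 0.357). The DKO value was 0.72 (adjusted p = 0.101) without DKO replicate 2, past both thresholds.

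With LPS+IL-4 Gimap3 was at 203 and 164 CPM for control, 206 and 187 for the PU.1 cKO, 249 and 245 for the SpiB KO and 320.2 and 285 for the libraries labelled DKO. DKO was highest and PU.1 cKO overlapped the control. The log2 fold change was 0.72 in DKO (SE 0.11, adjusted p = 0.0012), 0.43 in SpiB KO (SE 0.11, adjusted p = 0.0945, under the fold threshold) and 0.10 in PU.1 cKO, and DKO exceeded PU.1 cKO by 0.62 (SE 0.11, adjusted p = 0.0064). The DKO value against control was 0.58 (adjusted p = 0.00711) without control replicate 2. Against PU.1 cKO it was 0.57 without PU.1 cKO replicate 2 and 0.54 without DKO replicate 1, all under the fold threshold. Without control replicate 1 the SpiB KO value was 0.60 (adjusted p = 0.015), past both. In naive cells Gimap3 was at 340 and 366 CPM in control and at 342 to 425 CPM in the mutants, of which PU.1 cKO (376 and 425) held the highest library, and no difference from control passed the test. Gimap3 and Gimap5 share 190 words of 50 bases, 7.52% of those of Gimap3 and 4.53% of those of Gimap5. Their counts are thus somewhat uncertain, while the other members share no such words with any member. In GENCODE a further gene, Gm28053, overlaps 6016 bases of Gimap7, 4742 of Gimap1 and 6448 of Gimap5. Its part in the counts was not tested.

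The remaining 5 members passed both thresholds in no comparison of genotypes. Gimap8 did so, for CD40L+IL-4 DKO against SpiB KO, only when DKO replicate 1 was left out (-0.59, adjusted p = 0.147). Gimap8 was at 90.7 and 87.2 CPM in control and 117 and 109 in the DKO-labelled libraries after LPS+IL-4, a log2 difference of 0.35 (SE 0.08, adjusted p = 0.00951). Gimap1 was at 145 and 127 CPM in control and 162.5 and 172 in the same libraries, a difference of 0.30 (SE 0.10, adjusted p = 0.0469). For both genes these groups did not overlap, and the folds were under the threshold. Gimap5 stayed between 52.0 and 61.9 CPM with LPS+IL-4, with PU.1 cKO lowest (-0.21, SE 0.08, adjusted p = 0.119).

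Gimap4 and Gimap6 had no adjusted p under 0.15 against control at any stage. Gimap4 was at 449 to 533.5 CPM in the 8 naive libraries, 536 to 736 with CD40L+IL-4 and 616 to 720.2 with LPS+IL-4. Gimap6 was at 438 to 534 CPM in naive cells, 179 to 245 with CD40L+IL-4 and 264 to 312 with LPS+IL-4. For Gimap4 the PU.1 cKO libraries were lowest with LPS+IL-4, at 616 and 663 CPM against 708 and 720.2 in control. Gimap1os, a non-coding gene on the opposite strand that overlaps Gimap1 in GENCODE, was the only other Gimap entry in the tables. It was at 47.4 and 47.5 CPM in naive control cells and fell on activation by 0.66 with CD40L+IL-4 and by 1.19 with LPS+IL-4. No genotype difference of Gimap1os was past both thresholds, and the strand setting of the counting is not given in the sources used here, so its reads and those of Gimap1 may be mixed.

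Counted over the members, changes with genotype were few. In naive cells 0 of 8 members changed with loss of PU.1 (10.7% of all genes tested), 0 with loss of SpiB (9.62%) and 1 with loss of both (21.2%). With CD40L+IL-4 the counts in this order were 2 (13.5%), 0 (0.134%) and 0 (18.3%). With LPS+IL-4 they were 1 (10.5%), 1 (3.19%) and 2 (20.2%). With 8 members, 1 gene is a large share, and against these backgrounds the counts are not a result about the family as a whole.

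DKO against PU.1 cKO gave 0 members in naive cells (12.9% of all genes), 0 with CD40L+IL-4 (4.06%) and 1 with LPS+IL-4 (12.6%). DKO against SpiB KO gave 0 (3.03%), 1 (15.3%) and 0 (12.8%), and the interaction of both losses 0 (0.936%), 0 (1.17%) and 1 (1.38%). Across the comparisons with 0 members changed by edgeR, unadjusted p was under 0.05 for 0 to 3 members. In naive cells these were 1 with loss of PU.1, 0 with loss of SpiB, 1 for DKO against PU.1 cKO, 2 for DKO against SpiB KO and 0 for the interaction. With CD40L+IL-4 they were 2 in SpiB KO, 2 in DKO, 0 for DKO against PU.1 cKO and 1 for the interaction, and with LPS+IL-4 3 for DKO against SpiB KO. DESeq2 and limma voom gave 0 in these comparisons too, except that DESeq2 gave 1 in CD40L+IL-4 DKO, Gimap9.

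For the difference of a genotype's effect between stages, PU.1 cKO gave 0 members for CD40L+IL-4 against naive cells (8.21% of all genes), 1 for LPS+IL-4 against naive (5.88%) and 1 for LPS+IL-4 against CD40L+IL-4 (2.97%). SpiB KO gave 0 (2.13%), 1 (5.36%) and 0 (0%) in the same order, and DKO gave 0 (14.4%), 2 (23.7%) and 1 (22.5%). Leaving out 1 library moved the DKO counts to 0 to 1, 1 to 2 and 1 to 3, and the second SpiB KO count to 0 to 1. The first DKO count was 1 without DKO CD40L+IL-4 replicate 2 (Gimap3, 0.61, adjusted p = 0.118). The last was 3 without DKO CD40L+IL-4 replicate 1, with Gimap8 (0.72) and Gimap9 (0.62) added. It was 2, with Gimap9 added, without DKO LPS+IL-4 replicate 1 or either replicate 1 of the activated control. Of those at 0 in edgeR, unadjusted p was under 0.05 for 0 members with loss of PU.1, 2 and 1 with loss of SpiB and 0 with loss of both, and DESeq2 and limma voom gave 0 in each. The members behind the other counts over all libraries were Gimap7 and, for DKO between LPS+IL-4 and naive cells, also Gimap9.

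**Figure D3:**
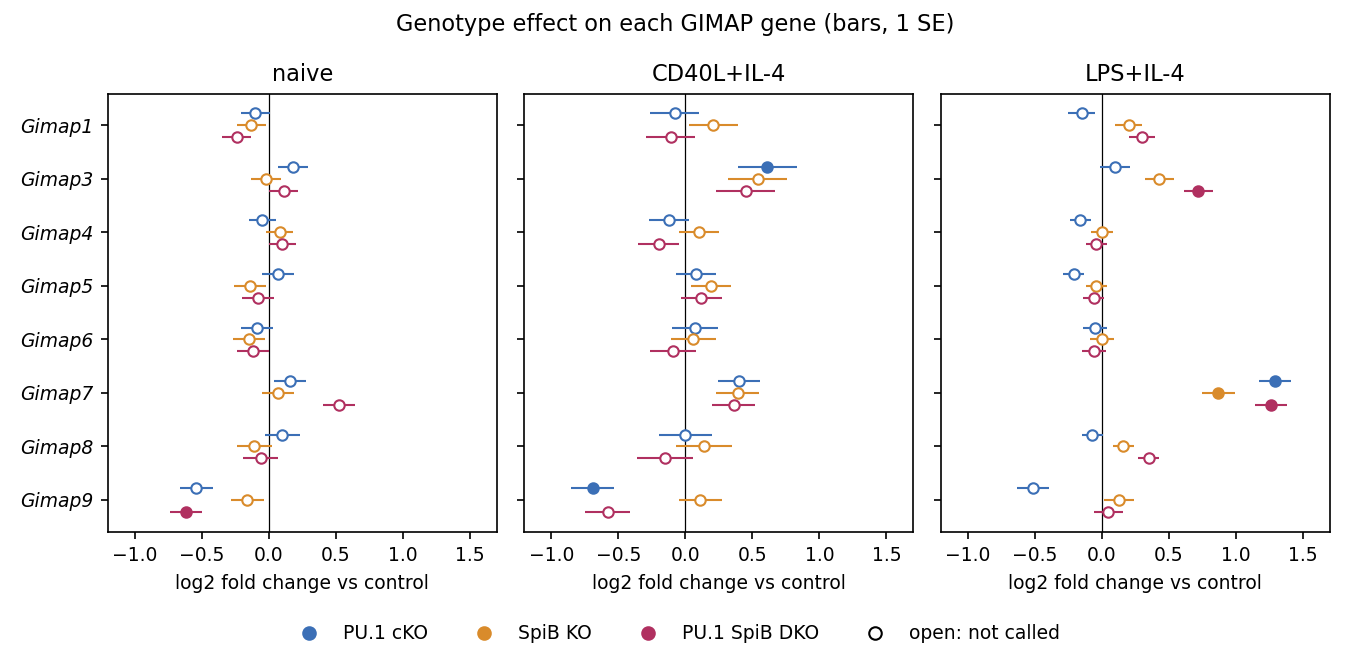
Log2 fold change against control of each GIMAP gene in each mutant and stage, with bars for 1 standard error and open points where the thresholds were not passed. Gimap7 reaches 1.29, 0.87 and 1.26 with LPS+IL-4, and Gimap9 lies at -0.54, -0.69 and -0.51 in PU.1 cKO over the 3 stages.

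Markers of other cells moved with genotype, although the cells had been sorted as CD3- B220+ CD138-, and their part in these results was not tested. The sum of 20 T cell markers was 154 and 101 CPM for naive control, 221 and 219 for the PU.1 cKO, 560 and 476 for the SpiB KO and 752 and 746 for DKO. Among these genes Cd8a was at 231 and 175 CPM in SpiB KO and 266 and 233 in DKO against 12.0 and 2.35 in control. The T cell receptor component Cd3d did not exceed 1.23 CPM in any naive library. Sums of plasmacytoid dendritic cell markers (12 genes) were 2134 and 1902 CPM in naive control and 3496 to 4298 in SpiB KO and DKO. Macrophage and monocyte markers (12 genes) were at 233 and 128 CPM in naive control and 777 to 1021 in the same groups. NK cell markers (10 genes) spanned 77.7 to 335 CPM in naive libraries. The naive Gimap7 and Gimap9 values of DKO stand beside these shifts. With CD40L+IL-4 the T cell sum was 128 and 129 CPM for control, 224 and 211 for the PU.1 cKO, 205 and 167 for the SpiB KO and 404 and 368 for DKO. Plasma cell markers were at 1282 to 1864 CPM in control and SpiB KO and at 2207 to 2973 CPM in PU.1 cKO and DKO, where Gimap9 was lower. In naive cells their sum was 445 and 467 CPM for control, 368 and 384 for the PU.1 cKO, 576 and 572 for the SpiB KO and 551 and 474 for DKO. Gimap9 was lower there in PU.1 cKO and DKO. After LPS+IL-4 the libraries labelled DKO had the highest sum, given below, and their Gimap9 overlapped the control. PU.1 cKO also had a higher sum than control there, and its Gimap9 was lower (-0.51 on the log2 scale, under the fold threshold). SpiB KO had a slightly higher sum than control, and its Gimap9 overlapped the control.

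With LPS+IL-4, where Gimap7 differed most, T cell receptor genes were at or near 0. The counts in replicates 1 and 2 of Cd3d were 0 and 0 for control, 6 and 0 for the PU.1 cKO, 6 and 3 for the SpiB KO and 3 and 0 for DKO. Cd3e had at most 1 count and Cd3g at most 4 in any of the 8 libraries. The T cell marker sum was still 86.7 and 76.8 CPM for control, 163 and 161 for the PU.1 cKO, 123 and 118 for the SpiB KO and 307 and 291 for DKO, with 2 to 7 of 20 genes at 0 in a library. The sum of 7 plasma cell markers was 726 and 779.8 CPM for control, 1422 and 1539 for the PU.1 cKO, 847 and 899.9 for the SpiB KO and 2074 and 1986 for DKO. Macrophage markers were lower in DKO (15.6 and 16.4 CPM) than in control (83.8 and 72.6 CPM), NK cell markers spanned 1.38 to 25.2 CPM and plasmacytoid dendritic cell markers 481 to 707 CPM. The part of these shifts in the Gimap7 values was not tested.

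Other gene groups tied to GIMAP biology were described over the same comparisons. Of 20 genes of lymphocyte quiescence and recirculation, 0 rose and 16 fell with CD40L+IL-4 in control cells (median log2 fold change -1.17), and 0 rose and 18 fell with LPS+IL-4 (median -2.26). Of all genes tested, 25.4% rose and 23.4% fell with CD40L+IL-4, and 32.6% rose and 31.3% fell with LPS+IL-4. Examples with LPS+IL-4 were Klf2 (-3.49), a factor that holds lymphocytes at rest, S1pr1 (-3.56), the receptor for leaving lymph nodes, the IL-7 receptor Il7r (-4.01) and the antiproliferative Btg1 (-3.60). In the LPS+IL-4 libraries labelled DKO 11 of the 20 rose and 2 fell (median 0.80), with Satb1 at 2.53, Klf4 at 2.05 and Foxo1 at 1.31, where 13.7% of all genes rose and 6.52% fell. With LPS+IL-4 2 rose and 2 fell in PU.1 cKO (6.68% and 3.85% of all genes), and 3 rose and 0 fell in SpiB KO (2.25% and 0.94%). In DKO 1 rose and 6 fell in naive cells (12.6% and 8.64% of all genes), and 2 rose and 5 fell with CD40L+IL-4 (9.13% and 9.2%).

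Of 19 other GTPases of lymphocytes or the interferon response, 0 rose and 13 fell with CD40L+IL-4 (median -1.66), and 4 rose and 9 fell with LPS+IL-4 (median -0.48), against the same shares of all genes. The interferon-inducible Gbp2 rose by 3.69 with LPS+IL-4. In LPS+IL-4 DKO, where 13.7% of all genes rose and 6.52% fell, 2 rose and 10 fell (median -0.98), among them the antiviral Mx1 (-4.16). This was not the direction of Gimap7 and Gimap3 in the same libraries.

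Of the BCL2 family, which sets the threshold of apoptosis, 17 of 18 genes could be tested. With CD40L+IL-4 10 rose and 4 fell (median 0.63), and with LPS+IL-4 9 rose and 3 fell (median 0.76), beside 25.4% and 23.4% of all genes for the first and 32.6% and 31.3% for the second. The protective Bcl2l1 rose by 3.73 with LPS+IL-4 and the death-promoting Bmf fell by 4.54 with CD40L+IL-4. In LPS+IL-4 cells 0 rose and 5 fell in PU.1 cKO (6.68% and 3.85% of all genes), with Bcl2a1b at -3.63, and 2 rose and 7 fell in DKO (13.7% and 6.52%). Of the 5 ATG8 genes, 1 rose and 3 fell with each activation, against the shares of all genes given for the BCL2 family. Gabarapl1 rose by 2.12 and Map1lc3a fell by 2.42 with LPS+IL-4. These lists were chosen with results of the data known, and their counts are descriptions.

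**Figure D4:**
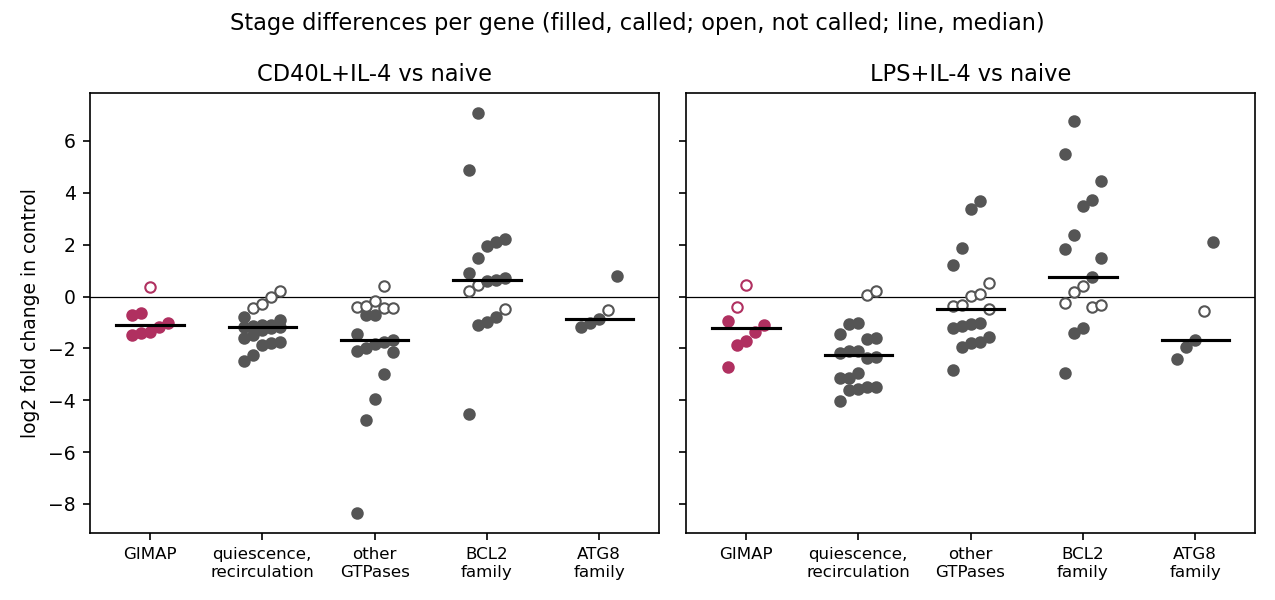
Log2 fold change on activation in control cells of the GIMAP genes and of the 4 other gene groups, 1 point a gene (filled where the thresholds were passed), with a line at each median. The GIMAP medians lie at -1.11 and -1.23, those of the quiescence genes at -1.17 and -2.26, and points far from 0 include genes with very few counts at 1 stage.

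The genes around the cluster were counted in the same way. Of 23 genes in the tables within 500 kb, 14 could be tested between stages, and 6 rose and 2 fell with CD40L+IL-4 (25.4% and 23.4% of all genes) while 5 rose and 3 fell with LPS+IL-4 (32.6% and 31.3%). The nearest on the side of Gimap8 was AI854703, at 13.5 kb, which rose by 1.55 in naive PU.1 cKO (adjusted p = 0.0795), by 2.85 in naive DKO (adjusted p = 0.00192), by 2.16 in CD40L+IL-4 PU.1 cKO (adjusted p = 0.0524) and by 2.88 in CD40L+IL-4 DKO (adjusted p = 0.0103). On the other side Tmem176b, at 63 kb, a membrane protein best known in myeloid cells, rose by 4.62 with CD40L+IL-4 and by 2.78 with LPS+IL-4 in control, and by 1.35 in naive SpiB KO. Against control, of 12 neighbours tested in naive cells, 2 rose and 0 fell in PU.1 cKO (4.18% and 6.55% of all genes). SpiB KO gave 2 and 0 (6.01% and 3.62%) and DKO 3 and 1 (12.6% and 8.64%). Of 13 tested with CD40L+IL-4, 1 rose and 2 fell in PU.1 cKO (6.27% and 7.21%). SpiB KO gave 0 and 0 (0.0786% and 0.055%) and DKO 2 and 1 (9.13% and 9.2%). After LPS+IL-4, 0 of the 13 neighbours tested rose in PU.1 cKO and 1 fell (6.68% and 3.85% of all genes). SpiB KO gave 0 and 2 (2.25% and 0.94%) and DKO 1 and 1 (13.7% and 6.52%).

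Over the 24 libraries the members' mean log2 CPM was most like that of BE692007 (Pearson r = 0.992), Hhex (0.988), Tcp11l2, Acp5 and Pcmtd2 (0.987 each) among 13675 genes. Of the members themselves Gimap8 was most like the mean (0.981) and Gimap4 was opposite (-0.757). Among pairs the highest r was that of Gimap5 and Gimap8 (0.928), and Gimap4 and Gimap7 stood at -0.797. The libraries fall into 3 stages, which set most of these values, so they are descriptions over 24 libraries without a test.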

How the data were processed

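Processed files were used as deposited. Per the labels and the methods of the study, the authors aligned reads with Subread to GRCm38/mm10 and counted uniquely mapped reads over NCBI RefSeq exons with featureCounts. Versions and the strand setting are not given in the sources used here. The authors deposited raw counts per gene and log2 RPKM values per sample. The counts were used for all tests, and the log2 RPKM for levels between genes. The 517 entries without a symbol (0.1616% of counts) were kept, and were scaled and tested where they passed the filter on low counts.

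Libraries were grouped by their labels. The extraction text given to every sample names only CD40L+IL-4, so the stage was taken from titles and source names. Counts were scaled by TMM and tested with the quasi-likelihood test of edgeR 4.0.16 (R 4.3.3) over the 8 libraries of a stage, after keeping genes with at least 0.5 CPM in 2 libraries. Control stages and stage by genotype differences came from 1 fit of all 24 libraries. Calls needed a Benjamini-Hochberg adjusted p under 0.15 and a fold above 1.5, the thresholds of the study's methods, where voom was the tool. DESeq2 1.42.0 and limma 3.58.1 voom were alternatives, beside RLE scaling, no filter, an adjusted p under 0.05, other sets of libraries, each library left out and a replicate block. Fits were tested on simulated counts. Standard errors were taken from each fold change and its F statistic.

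The members and lists were chosen with earlier results of these data known. Genes named were the members, further Gimap entries, Spi1 and Spib, called list genes by size, T cell markers, the nearest and called neighbours within 500 kb, and the 5 genes most like the members' mean. The lowest count of any member in a library was 275 (Gimap9).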

Additional observations from a re-analysis of the deposited data

Results flagged for a closer look

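The effect of a genotype differed between stages for 2 members, by the test of the difference itself in the fit of all 24 libraries. The DKO groups compared also differed in Spi1, counted over all its exons. Its log2 fold change against control was -0.63 in naive and -1.73 in CD40L+IL-4 DKO cells, but -0.11 in the LPS+IL-4 libraries labelled DKO. CD40L+IL-4 cells were also counted in a separate table. The part of either in these differences was not tested. For Gimap7 the PU.1 cKO effect was 1.10 larger on the log2 scale with LPS+IL-4 than in naive cells (SE 0.18, adjusted p = 0.00286) and 0.84 larger than with CD40L+IL-4 (SE 0.19, adjusted p = 0.0366), and both differences passed in 8 of 8 fits without 1 library each. The SpiB KO effect on Gimap7 was 0.79 larger than in naive cells (SE 0.18, adjusted p = 0.0302), in 7 of 8 such fits. The DKO effect on Gimap7 was 0.67 larger than in naive cells (SE 0.18, adjusted p = 0.0174), in 6 of 8 fits, and 0.82 larger than with CD40L+IL-4 (SE 0.19, adjusted p = 0.00788), in 8 of 8. For Gimap9 the DKO effect was 0.61 higher with LPS+IL-4 than in naive cells (SE 0.18, adjusted p = 0.0241), in 5 of 8 fits.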

How the results depend on the processing

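Gimap7 stayed called against LPS+IL-4 control under all 7 other settings (1.24 to 1.29 in PU.1 cKO, 1.18 to 1.26 in DKO, 0.82 to 0.88 in SpiB KO) and without each library in turn (1.13 to 1.42, 1.19 to 1.31 and 0.79 to 0.95). No result reversed. Of 3192 values of members under an alternative, 3053 stayed called, or stayed uncalled and moved by at most 1 SE, 88 stayed uncalled and moved by more, 22 came to pass and 29 no longer passed. Among comparisons within a stage or of control stages, settings other than a left-out library moved the number of members called in these cases. Without the filter the CD40L+IL-4 interaction gave 1 (Gimap3, -0.74, adjusted p = 0.135). At an adjusted p under 0.05, CD40L+IL-4 PU.1 cKO gave 1 and the LPS+IL-4 interaction 0. DESeq2 gave 1 for CD40L+IL-4 DKO (Gimap9, -0.58, adjusted p = 0.0375). The fit of all 24 libraries gave 0 for LPS+IL-4 DKO against PU.1 cKO (Gimap3, 0.57, adjusted p = 0.0405). Without 1 library, the count was 0 to 1 for CD40L+IL-4 PU.1 cKO, CD40L+IL-4 DKO, the LPS+IL-4 interaction and naive PU.1 cKO, 0 to 2 for CD40L+IL-4 DKO against SpiB KO, and 1 to 2 for LPS+IL-4 PU.1 cKO, SpiB KO and DKO against control. For differences between stages it was 0 to 1 for DKO between CD40L+IL-4 and naive cells and for SpiB KO between LPS+IL-4 and naive cells, 1 to 2 for DKO between LPS+IL-4 and naive cells and 1 to 3 for DKO between LPS+IL-4 and CD40L+IL-4. The cause was not tested. With limma voom, naive DKO called Gimap7 (0.62) in place of Gimap9. Voom also left 0.58 for the DKO effect on Gimap7 and 0.53 for that on Gimap9 between LPS+IL-4 and naive cells, and no filter 0.57 for the latter, all under the fold threshold, while voom called Gimap3 (0.62) there, so that each gave 1 member in place of 2.

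Replicates share only a number in the labels. Deviations of same-numbered libraries correlated at 0.0918 to 0.25 in naive cells, -0.0702 to 0.266 with CD40L+IL-4 and 0.386 to 0.514 with LPS+IL-4. The replicate block changed no call, with 2 members in CD40L+IL-4 PU.1 cKO, 2 in LPS+IL-4 DKO and 7 between naive and CD40L+IL-4 control cells. With 2 libraries a group, a missed threshold does not show equal levels.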
